A study of Homo sapiens with 36 samples.

Results

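Binding of V5-tagged HIF-α was described at 9 genes for angiogenic and vasoactive factors and their receptors: VEGFA, VEGFC, PGF, FLT1, KDR, ANGPT2, ANGPTL4, ADM and EDN1. A peak was assigned to a gene when its summit lay in the gene body or within 50 kb on either side. Of the 213711 peaks in the 18 anti-V5 lists, 421 met this rule, 412 of them in the 15 lists from tagged lines and 9 in the 3 lists from untagged cells. Overlapping peaks of all lists were merged into 61215 regions, of which 25783 were called in at least 2 libraries and are named consensus regions below. The 9 genes held 79 regions, of which 44 were consensus regions and 35 came from 1 library each.

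The data were Cut&Run profiles from the human renal cancer line 786-O, of the clear cell type. Without functional VHL, the line keeps HIF-2α at normal oxygen, and it has no functional HIF-1α. Cut&Run directs a nuclease to chromatin through an antibody and sequences the fragments it cuts free. Each of the 6 lines had 3 anti-V5 libraries, each with its own IgG control library. The 36 samples were thus 18 anti-V5 and 18 IgG libraries, and the IgG libraries entered only through the peak calls.

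Wild-type (WT) cells carried no tag and gave the background of the antibody. The knock-in (KIN) line was 1 homozygous clone with V5 and HaloTag at the N terminus of endogenous HIF-2α. The other 4 lines were WT cells that stably expressed a V5-HaloTag fusion from an L30 promoter, and they kept their own untagged HIF-2α. HIF-2α and HIF-1α were the full-length proteins. HIF-2α/1α joined residues up to 365 of HIF-2α, with the DNA-binding and dimerization domains (here called DBD), to residues 364 to 826 of HIF-1α, the intrinsically disordered region (IDR). HIF-1α/2α joined residues up to 363 of HIF-1α to residues 366 to 870 of HIF-2α. The labels do not say that replicates were separate cultures, so p-values measure the spread between these libraries, which may be technical.

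HIF-α subunits pair with HIF-1β and bind the hypoxia response element (HRE), a short motif with the core RCGTG. Vascular endothelial growth factor A (VEGFA) is the best known angiogenic target of hypoxia, and placental growth factor (PGF) and VEGFC are related ligands. KDR and FLT1 are receptors of this ligand family, found mainly on endothelial cells, and ANGPT2 is a ligand of the endothelial receptor TEK. ANGPTL4 is a secreted inhibitor of lipoprotein lipase that also acts on vessels, adrenomedullin (ADM) is a vasodilator peptide, and EDN1 encodes the precursor of endothelin-1, a vasoconstrictor.

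Regions are named by gene and by the distance of the leading summit from the 5′ end of the gene, with positive distances downstream. The leading summit is that of the peak with the best place in its list. Sequences around the leading summits are shown for the 6 regions called in every tagged library and no WT library, for the strongest region of the set (ADM +3.1 kb), for the region that differed between DBDs (ANGPTL4 +0.8 kb) and for the EDN1 promoter. They were read from the hg38 genome, extend up to 100 bp to each side of the summit, and were cut before any untranslated region. Capitals mark ACGTG or GCGTG on either strand, so that CACGT and CACGC are the same motif read from the opposite strand.
ADM +3.1 kb, chr11:10308108-10308308, + strand: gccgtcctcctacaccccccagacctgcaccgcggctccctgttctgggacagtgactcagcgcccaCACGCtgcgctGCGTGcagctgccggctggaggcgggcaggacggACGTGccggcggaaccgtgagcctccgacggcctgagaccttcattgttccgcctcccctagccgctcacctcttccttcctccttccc
ADM −0.1 kb, chr11:10304899-10305072, + strand: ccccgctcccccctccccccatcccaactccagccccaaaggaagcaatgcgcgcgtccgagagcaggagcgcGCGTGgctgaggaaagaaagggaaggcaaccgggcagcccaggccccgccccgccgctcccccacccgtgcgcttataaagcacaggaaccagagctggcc
VEGFA −0.4 kb, chr6:43769709-43769909, + strand: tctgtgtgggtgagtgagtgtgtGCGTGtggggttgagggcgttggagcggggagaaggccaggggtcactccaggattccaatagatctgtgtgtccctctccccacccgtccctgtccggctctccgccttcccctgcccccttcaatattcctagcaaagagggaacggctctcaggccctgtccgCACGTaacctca
VEGFA −44.9 kb, chr6:43725179-43725379, + strand: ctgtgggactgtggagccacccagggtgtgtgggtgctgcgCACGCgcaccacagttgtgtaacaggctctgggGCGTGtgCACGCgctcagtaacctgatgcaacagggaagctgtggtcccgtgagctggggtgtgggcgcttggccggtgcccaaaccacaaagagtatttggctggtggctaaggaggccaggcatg
ANGPTL4 −1.0 kb, chr19:8362150-8362350, + strand: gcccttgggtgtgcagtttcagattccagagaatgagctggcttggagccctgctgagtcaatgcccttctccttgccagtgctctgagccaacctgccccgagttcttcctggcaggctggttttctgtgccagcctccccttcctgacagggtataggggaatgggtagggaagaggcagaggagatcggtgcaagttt
ANGPTL4 +0.8 kb, chr19:8363961-8364154, + strand: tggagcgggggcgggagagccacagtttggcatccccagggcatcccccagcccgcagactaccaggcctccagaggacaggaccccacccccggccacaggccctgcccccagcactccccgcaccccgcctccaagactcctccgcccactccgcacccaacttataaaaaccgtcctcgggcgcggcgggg
ANGPTL4 +4.4 kb, chr19:8367562-8367762, + strand: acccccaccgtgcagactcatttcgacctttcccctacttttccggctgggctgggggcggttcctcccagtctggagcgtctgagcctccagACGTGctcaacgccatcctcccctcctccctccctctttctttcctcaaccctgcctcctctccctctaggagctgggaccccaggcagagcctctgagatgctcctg
PGF −25.9 kb, chr14:74981407-74981607, + strand: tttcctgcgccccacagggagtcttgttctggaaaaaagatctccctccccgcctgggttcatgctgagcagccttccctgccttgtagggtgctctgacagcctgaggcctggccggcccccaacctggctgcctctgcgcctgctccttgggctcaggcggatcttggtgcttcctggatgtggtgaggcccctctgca
EDN1 −0.2 kb, chr6:12290095-12290295, + strand: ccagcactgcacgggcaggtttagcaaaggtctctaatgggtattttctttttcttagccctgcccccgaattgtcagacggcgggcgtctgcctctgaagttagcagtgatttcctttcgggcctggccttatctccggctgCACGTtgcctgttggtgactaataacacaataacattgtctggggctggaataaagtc

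In the ADM +3.1 kb sequence 3 HREs lie within 31 bp of the summit. VEGFA −44.9 kb also has 3, and ANGPTL4 +4.4 kb has 1 HRE 5 bp from the summit. The windows at ANGPTL4 −1.0 kb, ANGPTL4 +0.8 kb and PGF −25.9 kb hold none. The ADM +3.1 kb and ANGPTL4 −1.0 kb windows each have the AP-1 motif TGACTCA or TGAGTCA near the summit.

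Libraries covered the genome with a mean of 0.241 to 0.625 fragments per base, as solved from the lists, and the tagged lists held 3984 to 20808 peaks. WT replicates 1, 2 and 3 gave 392, 9508 and 743 peaks, so replicate 2 stood apart from the other WT lists. Longer lists call more regions, and the absence of a call does not show that a site was free of the protein. In the tagged libraries 25.0 to 68.2% of the 44 consensus regions at the 9 genes were called, beside 12.3 to 69.4% of all consensus regions. In WT replicates 1, 2 and 3 these shares were 0, 11.4 and 4.55% at the 9 genes and 0.167, 13.7 and 2.46% of all.

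The 421 peaks were spread unevenly over the genes. VEGFA had 131 peaks, ANGPTL4 had 110 and ADM had 96. PGF followed with 37 and EDN1 with 25. VEGFC and KDR had 8 each, FLT1 had 5 and ANGPT2 had 1. VEGFA, ANGPTL4 and ADM thus held most peaks. The receptors KDR and FLT1 had few, and the secreted factors VEGFC and ANGPT2 had no more than KDR. Per 100 kb of window, the tagged libraries gave 112 peaks at VEGFA, 97.2 at ANGPTL4 and 88.9 at ADM, and the median of 20007 protein-coding genes was 8.88. These densities exceeded those of 99.8, 99.5 and 99.2% of the genes. KDR (5.44), VEGFC (3.82), FLT1 (1.36) and ANGPT2 (0.611) lay below the median.

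**Figure D1:**
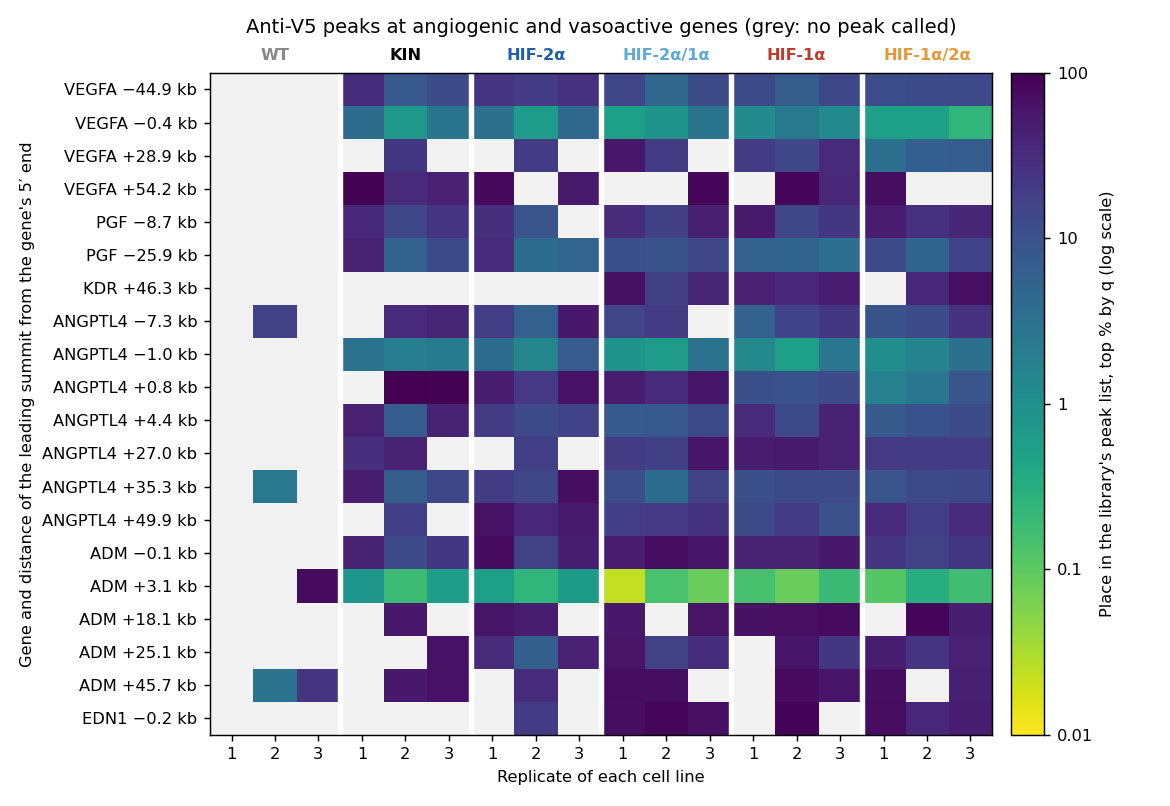
Place of each region in the peak list of each library, for regions at the 9 genes called in at least 8 tagged libraries. The vertical axis lists the regions and the horizontal axis the 3 replicates of each line. Colour gives the place in the list as the top percent by q-value on a log scale, and grey means no peak was called. ADM +3.1 kb is brightest in the 15 tagged libraries, VEGFA −0.4 kb and ANGPTL4 −1.0 kb follow with median places of 1.19 and 1.95%, while KDR +46.3 kb is grey in KIN and HIF-2α.

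Call by call, 8 of the 44 consensus regions were called in 15 of 15 tagged libraries, and 6 of these in none of the 3 WT libraries. These 6 were VEGFA −44.9 kb, VEGFA −0.4 kb, PGF −25.9 kb, ANGPTL4 −1.0 kb, ANGPTL4 +4.4 kb and ADM −0.1 kb. Each passed Fisher's exact test of tagged against WT calls (two-sided p = 0.00123, the smallest that 15 against 3 libraries allow, adjusted p = 0.0263 over all consensus regions). They made up 13.6% of the consensus regions at the 9 genes, beside 4.66% (1201) of all consensus regions. Among genes, 4 of the 9 (VEGFA, PGF, ANGPTL4 and ADM) had such a region, beside 10.9% of the 20007 protein-coding genes. With any 1 of the 3 WT libraries left out no region passed, because 15 against 2 libraries allow no smaller p (adjusted p = 0.118 without WT replicate 2, and 0.156 without either other one). In lists of equal length ADM −0.1 kb and ANGPTL4 +4.4 kb no longer passed, with 8 and 13 tagged libraries. At single summit sites, joined within 150 bp as described below, 5 of the 6 again had 15 tagged and 0 WT calls. The exception was ADM −0.1 kb, whose sites had at most 10 tagged calls (adjusted p = 0.347), so its call holds for the merged region only.

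The 9 WT peaks fell at ADM (5), ANGPTL4 (2), VEGFA (1) and FLT1 (1). Of these, 7 came from WT replicate 2 and 2 from WT replicate 3, both at ADM. Thus 38 of the 44 consensus regions had no WT call, 5 had 1, and ADM +45.7 kb, in an intron of AMPD3, had 2. At most 1 WT call was found at 43 of the 44, beside 25285 of all 25783 consensus regions. Besides, 29 of the 44 lay nearest to a start of the gene itself, and 15 lay nearer to the start of another protein-coding gene, which is named with them below. Regions without any WT call and nearest starts were not counted over all consensus regions, so neither count is read as a trait of the 9 genes.

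The region with the best place in the lists was ADM +3.1 kb, at chr11:10307004-10310142, just past the 3′ end of ADM (chr11:10305073-10307397, + strand). Enrichment at its highest peak was 54.5, 165 and 47.0-fold in KIN replicates 1, 2 and 3, and 65.4, 117 and 40.8-fold in HIF-2α. It was 213, 114 and 76.8-fold in HIF-2α/1α, 51.8, 78.1 and 54.8-fold in HIF-1α, and 151, 89.5 and 57.9-fold in HIF-1α/2α. All 5 tagged lines overlapped in these values. The peak ranked between 4 and 61 in its list in every tagged library, that is in the top 0.0236 to 0.803%, and 134 to 1083 fragments covered its summit. The 15 tagged summits lay within 17 bp of each other, each within 17 bp of an HRE.

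The same merged region held 1 WT peak, of 5.91-fold in WT replicate 3, and for this reason it did not pass the test against WT (adjusted p = 0.166, Fisher's exact test). The summit of that WT peak lay at 2458 bp from the nearest ADM start, whereas the leading tagged summit lay at 2831 bp. When summits within 150 bp of each other were joined into sites, a unit chosen after seeing the data, the tagged summit had 15 tagged and 0 WT calls (adjusted p = 0.0294).

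ADM −0.1 kb, at the ADM promoter, was called in the same 15 libraries at a lower level. Enrichment was 5.95, 14.2 and 10.8-fold in KIN, 4.38, 15.8 and 7.43-fold in HIF-2α, and 7.41, 3.66 and 7.33-fold in HIF-2α/1α. It was 7.89, 8.85 and 6.15-fold in HIF-1α and 10.0, 14.2 and 11.6-fold in HIF-1α/2α. Each HIF-1α/2α library was above all HIF-2α/1α and HIF-1α libraries, and the other lines overlapped. The median place was the top 40.8%. The merged region held more than 1 summit position. Close to the start, a site was called in 3 of 3 KIN, 3 HIF-2α, 2 HIF-2α/1α, 2 HIF-1α and 0 HIF-1α/2α libraries. At −1031 bp a second site was called in 1 KIN, 1 HIF-2α, 0 HIF-2α/1α, 2 HIF-1α and 3 HIF-1α/2α libraries. Neither site passed against WT, with 10 and 7 tagged calls (adjusted p = 0.347 and 0.706). Of 27120 sites in the genome none passed Fisher's exact test between IDRs or between DBDs, with 370 and 150 at an unadjusted p under 0.05.

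Further from ADM, the regions at +18.1, +24.1, +25.1, +44.1 and +45.7 kb lay nearest to starts of AMPD3, an AMP deaminase gene. Of these, +25.1 kb was called most often, in 12 tagged and 0 WT libraries, with a range of 6.31 to 59.5-fold. The −6.4 kb region lay nearest to SBF2 and was called in 5 tagged libraries, and the −2.9 kb region in 6, of which 3 were HIF-1α/2α.

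VEGFA (chr6:43770184-43786487, + strand) held 13 consensus regions, the most of the set. The strongest lay at −0.4 kb, where enrichment was 23.8, 89.3 and 27.7-fold in KIN, 28.1, 81.4 and 15.9-fold in HIF-2α, and 133, 63.6 and 33.4-fold in HIF-2α/1α. In HIF-1α it was 41.3, 37.3 and 41.2-fold, and in HIF-1α/2α 75.4, 96.4 and 82.0-fold. The lines overlapped, apart from HIF-1α and HIF-1α/2α, where every HIF-1α/2α library was above every HIF-1α library. This pair was not tested on its own. The median place was the top 1.19% of the list, with a best of 0.231% in HIF-1α/2α replicate 3. The merged region was 8522 bp long, because weaker peaks in the gene joined it, and the site at the leading summit alone had 15 tagged and 0 WT calls (adjusted p = 0.0294).

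Summits at VEGFA −0.4 kb took 2 positions. All 3 HIF-1α summits and that of HIF-1α/2α replicate 1 lay 68 to 70 bp downstream of the leading summit. The other 11 tagged summits lay between −25 and 20 bp of it. An HRE lies 75 bp upstream and another 91 bp downstream of the leading summit, so that the region did not count as one with an HRE within 50 bp.

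VEGFA −44.9 kb, nearest to the start of the mitochondrial ribosomal protein gene MRPS18A, was called in 15 tagged libraries at 5.33 to 37.1-fold (median 16.5), and its median place was the top 12.7%. HIF-2α gave 10.1, 6.06 and 9.25-fold, lower than each of the 3 HIF-1α libraries with 12.8, 37.1 and 17.6-fold. VEGFA +28.9 kb was called in 1 KIN, 1 HIF-2α, 2 HIF-2α/1α, 3 HIF-1α and 3 HIF-1α/2α libraries. Its enrichment in HIF-1α/2α was 40.6, 25.4 and 21.5-fold, above the other 7 libraries that called it, which ranged from 4.66 to 19.0-fold. VEGFA +54.2 kb was called in 9 tagged libraries, 3 of them KIN, at 3.15 to 11.6-fold. The other 9 VEGFA consensus regions were called in 1 to 6 tagged libraries.

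**Figure D2:**
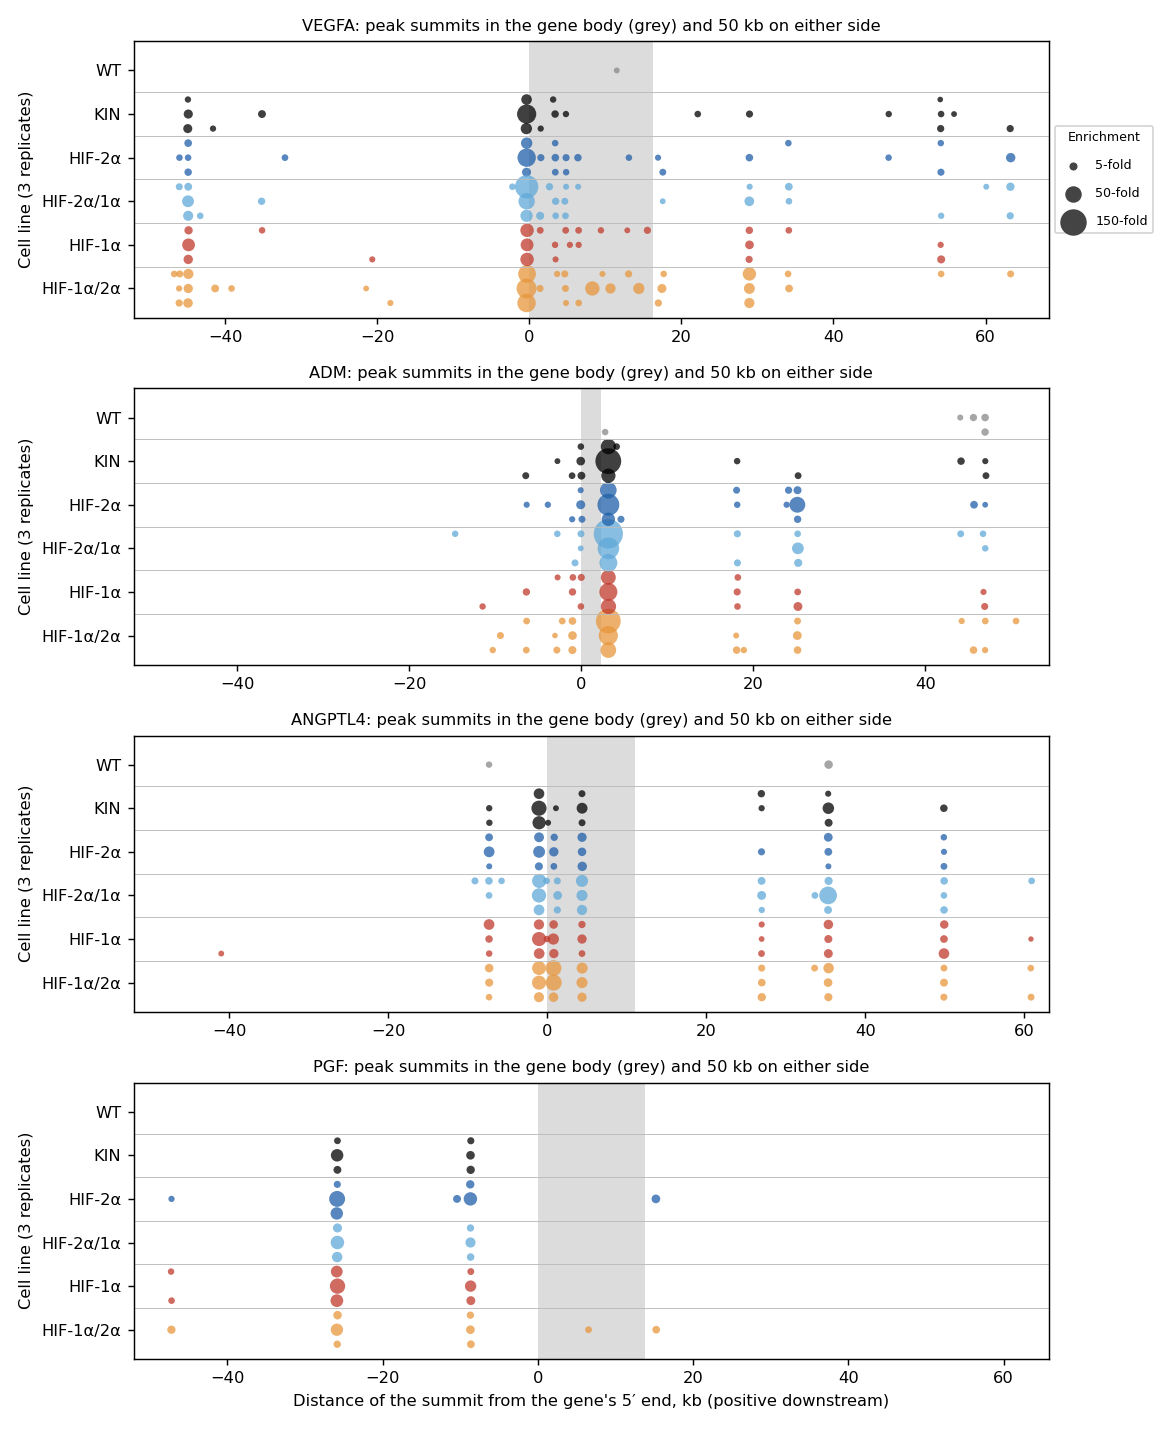
Summits of every peak in the windows of VEGFA, ADM, ANGPTL4 and PGF, with distance from the 5′ end of the gene in kb on the horizontal axis, lines and their 3 replicates on the vertical axis, circle area by fold enrichment, and the gene body in grey. The columns of circles at VEGFA −44.9 and −0.4 kb, ADM +3.1 kb, ANGPTL4 −1.0 and +4.4 kb and PGF −25.9 kb run through all 15 tagged libraries.

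PGF (chr14:74941834-74955626, − strand) had no peak at its promoter and 4 consensus regions. PGF −25.9 kb was called in all 15 tagged libraries with 6.85, 34.9 and 10.9-fold in KIN, 8.03, 60.0 and 34.6-fold in HIF-2α, and 15.9, 41.8 and 22.9-fold in HIF-2α/1α. In HIF-1α it was 30.5, 54.9 and 36.5-fold, and in HIF-1α/2α 13.6, 33.9 and 8.85-fold. Replicate 2 was the highest in every line, and all lines overlapped. The summit lay nearer to the start of EIF2B2, a subunit gene of a translation initiation factor, at −21.4 kb. PGF −8.7 kb was called in 14 tagged and 0 WT libraries at 7.27 to 41.0-fold (adjusted p = 0.0657) and was absent from the HIF-2α replicate 3 list. Without that library the region passed (Fisher's exact test, adjusted p = 0.0286). Leaving out the only tagged library without a call gives the smallest p possible there, so this adds no support. PGF −47.2 kb, at the EIF2B2 promoter, was called in 4 tagged libraries, and PGF +15.2 kb in 2.

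ANGPTL4 (chr19:8363289-8374370, + strand) had the widest set of regions called in nearly all tagged libraries. ANGPTL4 −1.0 kb gave 24.0, 53.8 and 40.0-fold in KIN, 19.8, 31.1 and 11.6-fold in HIF-2α, and 46.4, 47.2 and 24.4-fold in HIF-2α/1α. In HIF-1α it was 22.0, 46.2 and 24.2-fold, and in HIF-1α/2α 43.8, 45.6 and 20.9-fold. The exogenous lines overlapped, and the median place was the top 1.95%. The 15 summits spanned 34 bp and none lay within 50 bp of an HRE, the nearest of which is 105 bp from the leading summit.

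ANGPTL4 +4.4 kb, in an intron, was called in 15 tagged libraries at 6.76 to 32.5-fold (median 17.2), and all 15 summits lay within 28 bp of its HRE. ANGPTL4 +0.8 kb was called in 14 tagged libraries and no WT library (adjusted p = 0.0657). It was missing from KIN replicate 1, and without that library it passed (Fisher's exact test, adjusted p = 0.0235). Here too the only tagged library without a call was left out, which adds no support. The 14 calls hold for the merged region only. The leading summit lay at 772 bp from the 5′ end of the gene, those of KIN replicates 2 and 3 at 1082 and 92 bp (3.94 and 4.22-fold). The site at the leading summit had 9 tagged calls, 0 of them KIN (Fisher's exact test, adjusted p = 0.706). ANGPTL4 −7.3 kb was called in 13 tagged libraries and in WT replicate 2. The remaining regions lay near other starts. ANGPTL4 +27.0 kb, at the promoter of the small GTPase gene RAB11B, was called in 12 tagged libraries. ANGPTL4 +35.3 kb, in a RAB11B intron, was called in 15 tagged libraries and in WT replicate 2 with 13.6-fold, in the top 2.49% of that list. ANGPTL4 +49.9 kb, at the promoter of the ubiquitin ligase gene MARCHF2, was called in 13 tagged and 0 WT libraries, of which 1 was KIN.

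EDN1 (chr6:12290361-12297194, + strand) had 5 consensus regions and none in all tagged libraries. EDN1 −0.2 kb, at the promoter, was called in 1 HIF-2α, 3 HIF-2α/1α, 1 HIF-1α and 3 HIF-1α/2α libraries and in no KIN or WT library. Enrichment was 10.5-fold in HIF-2α replicate 2, 6.27, 4.25 and 6.92-fold in HIF-2α/1α, 3.12-fold in HIF-1α replicate 2, and 5.32, 7.51 and 7.44-fold in HIF-1α/2α. Both chimeric proteins thus had the peak in each replicate and each full-length protein in 1. In the lists these were weak peaks, with a median place of the top 69.4%. The other 4 EDN1 regions were called in 2 to 6 tagged libraries.

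Of the receptors, KDR (chr4:55078481-55125595, − strand) had 8 peaks, all in 1 region at +46.3 kb in the 3′ untranslated region. It was called with 5.93, 32.2 and 9.73-fold in HIF-2α/1α, with 9.29, 11.2 and 9.04-fold in HIF-1α, and with 11.0 and 6.90-fold in HIF-1α/2α replicates 2 and 3. It was called in no KIN, HIF-2α or WT library. With the HIF-1α IDR 6 of 6 exogenous libraries were called and with the HIF-2α IDR 2 of 6 (Fisher's exact test, p = 0.0606). FLT1 (chr13:28300346-28495145, − strand) had 5 peaks, each at a different place and in a different line, 1 of them WT, and no consensus region. ANGPT2 had 1 peak, of 5.45-fold in HIF-1α/2α replicate 2. VEGFC (chr4:176683538-176792922, − strand) had 3 consensus regions in introns or upstream, called in 2 or 3 tagged libraries with 5.42 to 10.1-fold.

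**Figure D3:**
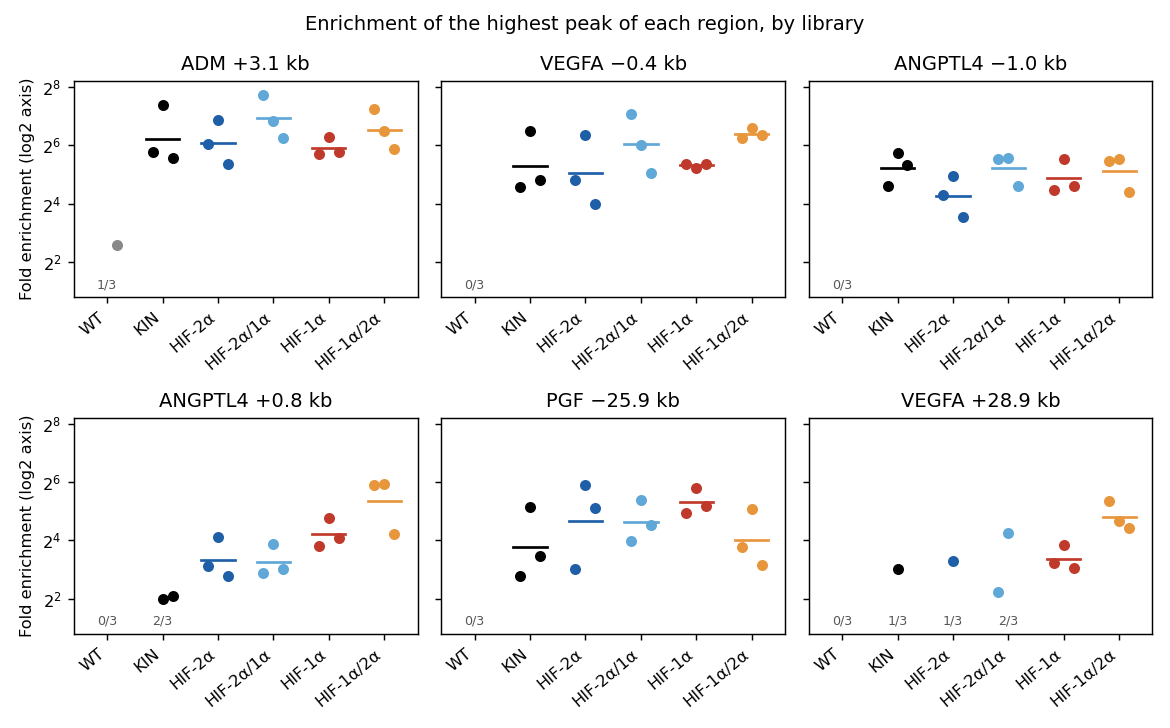
Fold enrichment of the highest peak on a log2 axis for 6 regions, with 1 point per library, a line at the mean of the log2 values where all 3 libraries of a line were called, and a count such as 1/3 where fewer were. The lines overlap at ADM +3.1 kb, between 40.8 and 213-fold, while at ANGPTL4 +0.8 kb HIF-1α/2α reaches 61.2-fold and KIN 4.22-fold. The KIN peaks there have other summits within the merged region than those of HIF-1α/2α.

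To ask which part of the protein went with stronger binding, enrichment was compared between domains. The test was limma on quantile-normalized log2 fold enrichment of the 2566 regions called in all 12 exogenous libraries and in at most 1 WT library, of which 10 lay at the 9 genes: 2 at VEGFA, 1 at PGF, 5 at ANGPTL4 and 2 at ADM. The other 34 consensus regions had no value in at least 1 library or a call in 2 WT libraries, and VEGFC, KDR, EDN1, FLT1 and ANGPT2 had no region in these fits. Counts over these 10 therefore do not speak for all regions at the genes. The comparisons of domains and of full-length proteins share the same libraries.

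By fold enrichment at the 10 regions, 1 differed between DBDs, ANGPTL4 +0.8 kb. The peak lists gave 8.75, 17.4 and 6.77-fold in HIF-2α and 7.42, 14.6 and 8.17-fold in HIF-2α/1α. They gave 13.9, 27.4 and 17.0-fold in HIF-1α, and 59.3, 61.2 and 18.6-fold in HIF-1α/2α. After normalization every library with the HIF-2α DBD was below every library with the HIF-1α DBD. The log2 mean was 3.31 ± 0.399 against 4.74 ± 0.767 (SD, n = 6 libraries each), a log2 difference of −1.42 (SE 0.335, limma adjusted p = 0.0056), or 2.68-fold less. The difference was −1.81, −1.40 and −1.07 within replicates 1, 2 and 3, and it passed without any 1 of the 12 libraries (−1.64 to −1.27).

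The summits of this region differed in place as well. Measured from the leading summit, they lay at −17 to 51 bp in HIF-1α, 0 to 21 bp in HIF-1α/2α and 45 to 96 bp in HIF-2α. In HIF-2α/1α they lay at 484 to 530 bp. The site at the leading summit was thus called in 9 of the 12 exogenous libraries, 0 of them HIF-2α/1α, and could not be fitted across all 12. Part of the difference therefore compares separate summits within 1 merged region. In fragments, HIF-2α summits held 13, 37 and 10, those of HIF-2α/1α 19, 45 and 11, those of HIF-1α 50, 70 and 44, and those of HIF-1α/2α 132, 135 and 63.

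None of the other 9 regions passed the test between DBDs, and their log2 differences were −0.62 to 0.50 with limma adjusted p of 0.363 to 0.917. For ADM +3.1 kb the difference was 0.14 with an interval of 2 SE from −0.54 to 0.81, and for VEGFA −0.4 kb it was −0.40 (−1.08 to 0.28). Differences of up to about these bounds cannot be told from the spread between libraries. Other values gave further calls between DBDs. By fragments at the summit over mean depth, 741 of the 2566 regions passed. ADM −0.1 kb then passed as well (−0.43, limma adjusted p = 0.0325), again between separate summits. In a fit of regions called in at least 6 of the 12 libraries, 318 of 11442 passed. VEGFA +28.9 kb was among them, with −1.66 (limma adjusted p = 0.0133). It was called in 6 libraries with the HIF-1α DBD and 3 with the HIF-2α DBD. Missing values, set to the lowest fold of the library, thus entered only with the HIF-2α DBD. The region also met the filter through the HIF-1α DBD side alone, where it was high. Its limma p-value is therefore no test of the DBD. By calls alone Fisher's exact test gave p = 0.182. By fold enrichment 76 of 2566 regions (2.96%) passed across the genome, 54 of them (2.10%) lower with the HIF-2α DBD. The median difference of the 10 regions was −0.33, beside 0.03 over all regions.

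For the IDR no region of the 10 passed limma, where 51 of the 2566 (1.99%) did. An unadjusted p under 0.05 was found at 421 of the 2566, and at 2 of the 10. These values were 0.82 at ANGPTL4 +0.8 kb (SE 0.335, limma adjusted p = 0.172) and 0.76 at ADM −0.1 kb (SE 0.337, adjusted p = 0.22), both higher with the HIF-2α IDR. At ADM −0.1 kb the HIF-1α/2α values came from summits at −1043 to −1031 bp and the HIF-2α values from summits at −78 to 70 bp. On the side of the HIF-1α IDR, summits lay at −44, −76 and −737 bp in HIF-2α/1α and −10, −1030 and −56 bp in HIF-1α. Each side thus mixed separate summits. ADM +3.1 kb differed by −0.05 (interval −0.72 to 0.63) and VEGFA −0.4 kb by 0.15 (−0.53 to 0.82). The median was −0.10 for the 10 regions and −0.01 for all. This outcome depended on the value compared. With fragments at the summit over the mean depth in place of the fold over the local IgG background, 1087 regions passed, and 5 of the 10. Of these, ADM −0.1 kb (0.81, adjusted p = 3.11e-04), ANGPTL4 +0.8 kb (0.68), VEGFA −0.4 kb (0.51) and PGF −25.9 kb (0.50) were higher with the HIF-2α IDR, and ANGPTL4 +49.9 kb (−0.44) was lower. PGF −25.9 kb had been −0.44 by fold, so its direction turned. By −log10 q, 551 of the 2566 passed, and 2 of the 10, ADM −0.1 kb (1.29) and ANGPTL4 +0.8 kb (1.12). When regions called in at least 6 of the 12 libraries were fitted, missing values were set to the lowest fold of the library. In this fit 310 of 11442 regions passed, at the 9 genes only VEGFA +17.4 kb (1.72). It had been called in 2 HIF-2α, 1 HIF-2α/1α, 0 HIF-1α and 3 HIF-1α/2α libraries. Most values with the HIF-1α IDR were thus filled in, and the region met the filter through the side where it was high. Its limma p-value is therefore no test of the IDR. By calls alone, 5 of 6 against 1 of 6 libraries, Fisher's exact test gave p = 0.0801.

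The interaction, which tests whether the IDR difference depends on the DBD, passed at none of the 2566 regions (0%), with 131 at an unadjusted p under 0.05. Its largest value among the 10 was 2.01 at PGF −25.9 kb (SE 0.699, limma adjusted p = 0.762). The IDR difference at PGF was thus not shown to differ between DBDs.

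Full-length HIF-2α and HIF-1α differed at 90 of 2566 regions (3.51%) and at none of the 10 (limma). At an unadjusted p under 0.05 there were 458 of the 2566 and 2 of the 10. ANGPTL4 +4.4 kb was higher in HIF-2α by 1.06 (SE 0.48, limma adjusted p = 0.226). ANGPTL4 +49.9 kb was lower by −1.05 (adjusted p = 0.228) and VEGFA −44.9 kb by −0.89 (adjusted p = 0.325). By fragments 1014 of the 2566 regions passed, and 2 of the 10, ANGPTL4 +0.8 kb (−1.53) and ANGPTL4 +49.9 kb (−0.71). The same pair passed by −log10 q, as did 548 of the 2566. Among 11442 regions called in at least 6 of the 12 libraries 256 passed. At the 9 genes this was ADM +25.1 kb, with 2.14 (limma adjusted p = 0.0422). It was called in 3 HIF-2α and 2 HIF-1α libraries, and the missing HIF-1α value was filled in. Exogenous and endogenous HIF-2α were compared over the 1602 regions called in all 15 tagged libraries. Of these 3 (0.187%) passed, and none of the 8 at the 9 genes. At an unadjusted p under 0.05 there were 149 of the 1602, and 1 of the 8. This was ANGPTL4 −1.0 kb, where the difference was −1.30 in exogenous HIF-2α (SE 0.465, limma adjusted p = 0.313), and the 3 HIF-2α libraries did not overlap with the 3 KIN libraries after normalization. By fragments this value was 0.14, in the opposite direction. By fragments 459 of the 1602 regions passed, and 3 others of the 8, each lower in exogenous HIF-2α. These were ADM −0.1 kb (−0.74, limma adjusted p = 0.0135), VEGFA −44.9 kb (−0.59, adjusted p = 0.0328) and ANGPTL4 +35.3 kb (−0.53, adjusted p = 0.0426). Medians were −0.48 for the 10 regions in the first of these comparisons (0.00 over all) and −0.64 for the 8 in the second (−0.01 over all).

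**Figure D4:**
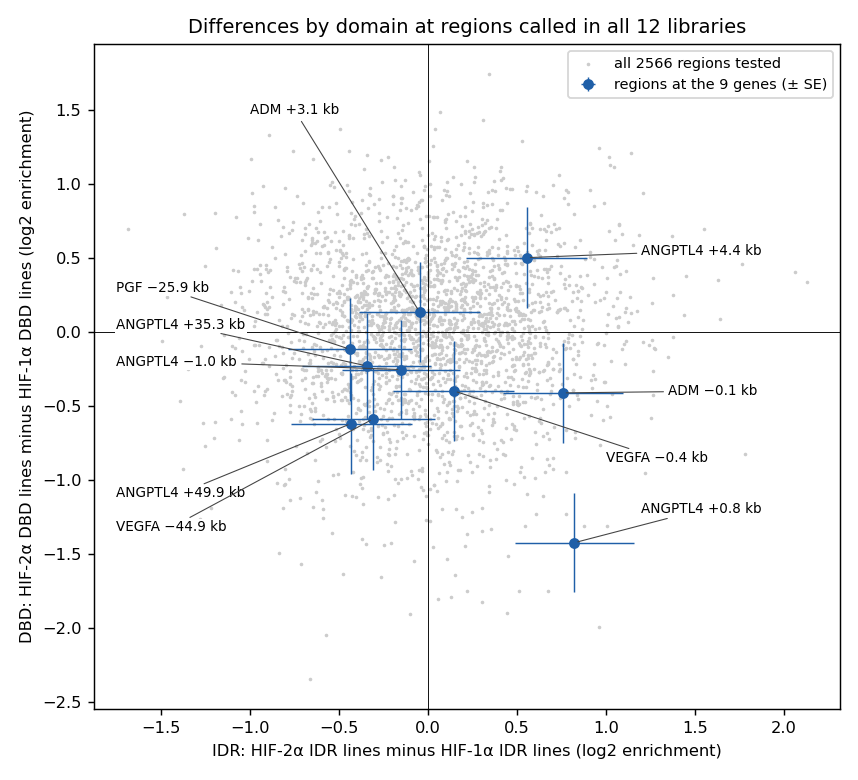
Log2 difference in enrichment by IDR (horizontal) and by DBD (vertical) for the 2566 regions called in all 12 exogenous libraries (grey) and the 10 regions at the 9 genes (blue, with bars of 1 SE). ANGPTL4 +0.8 kb lies lowest of the 10, at −1.42 by DBD, with 0.935% of the 2566 regions below it. By IDR, ADM −0.1 kb lies at 0.76 and ANGPTL4 +0.8 kb at 0.82.

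Regions not called everywhere were compared by their calls alone, 6 libraries against 6. Fisher's exact test over 25285 regions called in at most 1 WT library gave no region with an adjusted p under 0.05 for the IDR or the DBD. At an unadjusted p under 0.05 there were 357 (1.41%) for the IDR and 142 (0.562%) for the DBD, and 0 of the 43 regions at the 9 genes in either case. The KDR region described above came closest for the IDR. Of the 44 consensus regions 17 were not called in any KIN library, and 18 were called in fewer than 5 of the 15 tagged libraries. Matching counts over all consensus regions were not made, so these counts are not read as a trait of the 9 genes. KIN replicates 1, 2 and 3 called 25.0, 50.0 and 40.9% of the 44, beside 12.3, 33.1 and 24.6% of all consensus regions.

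Sequence at the summits was set beside the genome. ACGTG or GCGTG, searched on both strands, lay within 50 bp of the leading summit in 12 of the 44 regions (27.3%), beside 24.2% of all consensus regions. Among the 6 regions called in all tagged and no WT libraries 3 had it, beside 32.6% of the 1201 such regions in the genome. Within 100 bp the numbers were 19 of 44 (43.2%) and 4 of the 6, beside 45.0% of all and 67.5% of the 1201. The longer TACGTG lay within 50 bp in 0 of the 44 regions and in 2.70% of all. The AP-1 motif TGACTCA or TGAGTCA lay within 50 bp in 4 of 44 (9.09%), at ADM +3.1 kb, ADM +18.1 kb, ANGPTL4 −7.3 kb and ANGPTL4 −1.0 kb, beside 8.27% of all.

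For each region, the distance of the tagged summits was measured to the HRE nearest the leading summit, and it varied between regions. At ADM −0.1 kb this HRE lay 25 bp from the leading summit. Of the 15 tagged summits 6 lay within 50 bp of it, with a median distance of 89 bp. Other HREs were not counted, and these summits spanned 1113 bp. Whether the distant summits had an HRE of their own was therefore not tested. All 13 summits at ANGPTL4 +49.9 kb lay within 42 bp of its HRE, and at VEGFA −44.9 kb 12 of 15 lay within 50 bp. At the KDR region 6 of 8 did, and at EDN1 −0.2 kb 5 of 8.

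Other genes of the same pathways were read from a list of 45 ligands, receptors and enzymes, of which 10 had a region called in all 15 tagged and no WT libraries in their window, beside the 10.9% of protein-coding genes given above. Growth factors came first. PDGFB, a platelet-derived growth factor chain, had such a region at −7461 bp from its start, with a median place in the top 0.297% and a median of 54.3-fold. VEGFB, the VEGFA relative, had one at 385 bp (median top 8.87%, 27.0-fold). The receptor tyrosine kinase gene MET had 2, the better at 34492 bp (top 2.96%, 24.7-fold).

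Among vasoactive and vascular factors, EDN2 (an endothelin) had a region at 51626 bp and APLN (apelin) at 791 bp, with medians of 16.0 and 12.8-fold. HMOX1, which makes carbon monoxide from heme, had one at −29234 bp with 19.7-fold. ECE2, an endothelin-converting enzyme, and ANGPTL6 had regions with 23.7 and 23.4-fold that lay nearer to starts of other genes, the EEF1AKMT4-ECE2 readthrough gene and PPAN. STC1 had a region at 55965 bp (9.36-fold, top 29.4%). Of the 45 genes 35, among them the receptors FLT4, TEK, TIE1, CALCRL, EDNRA and EDNRB, had none. Of the regions named here only that of PDGFB had a median place near that of ADM +3.1 kb, the top 0.182%.

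Across the 15 tagged libraries, the regions outside the 9 windows whose normalized enrichment was most like that of ADM +3.1 kb lay nearest to BHLHE40 (Pearson r = 0.76), PER2 (0.71), PITRM1 (0.67), KCTD11 (0.66) and DDIT4 (0.66), out of 1594 regions. These values describe a likeness over 15 libraries of 5 lines that share depth and replicate, and nothing was tested with them.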

How the data were processed

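The authors aligned Cut&Run reads to hg38 with bowtie2 2.3.4.1 in local mode, called peaks with MACS2 for each anti-V5 library separately, with the matching IgG library as control and duplicates kept, and removed blacklisted regions with BEDTools 2.28.0. Samtools 1.8 was also used. The deposited lists give each peak's position, its summit, the fold enrichment over local background, and the −log10 p-value and −log10 q-value. Places in a list were ranked by q-value. Read totals are not in the lists. Depth and fragments at each summit were computed backwards from the fold and −log10 p. Among peaks with a −log10 p under 100, 99.9 to 100% gave whole fragments within 0.01 in −log10 p. Stronger peaks were outside this check. One library, HIF-2α/1α replicate 2, had been scaled by 0.949. Calls depend on this depth.

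Genes came from GENCODE release 44 on hg38. Peaks were merged on an overlap of at least 1 bp, and regions called in at least 2 libraries were tested. Calls were compared with Fisher's exact test (scipy 1.17.1), and log2 fold with limma 3.58.1 in R 4.3.3, 1 coefficient per line, with Benjamini-Hochberg adjustment over all regions (statsmodels 0.14.6) and a threshold of 0.05. Python 3.11.15, pandas 2.3.3, pysam 0.24.0 and matplotlib 3.10.9 were used. On simulated data with known answers, only limma for the IDR and Fisher's exact test for tagged against WT calls were tried. The genes, pathway list and tests were chosen with earlier results of these data known. Named were the 9 genes with their consensus regions, a neighbour whose start was nearer, the 10 pathway genes with the best-ranked region called in 15 tagged and 0 WT libraries, and the 5 regions most like the leading region. One gene that this rule names is counted but not reported here.

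Alternatives were other peak thresholds, list lengths, overlaps, windows, normalizations, values, weights, a replicate block and leaving out each library. Summit sites were added after seeing the data. Libraries with the same number deviated together weakly but in every pair (correlation 0.0124 to 0.15 over 18 pairs, 3 of them over 0.1). Their median was 0.0577, beside −0.0352 for libraries with different numbers. The main fits did not take the numbers as pairs, and the replicate block was an alternative.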

Additional observations from a re-analysis of the deposited data

How the results depend on the processing

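Calls against WT passed at 6 regions of the 9 genes (1201 in the genome). The number was 7 (1140) with a −log10 q of at least 5, 4 (1087) in lists of equal length, 5 (1127) with the summit within 250 bp of the region's median summit, 6 (1149) for summit sites (ADM +3.1 kb in place of ADM −0.1 kb), and 0 (0) when regions called in 1 library were kept, where the smallest adjusted p was 0.0625. Leaving out each library in turn gave 0 to 7 (0 to 1611), with 0 for each of WT replicates 1, 2 and 3. Calls by IDR and DBD stayed at 0 in every alternative run.

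For enrichment, the number of regions that passed and, in parentheses, those at the 9 genes are given. Fragments at the summit over mean depth gave 1087 (5) for the IDR, 741 (2) for the DBD, 3 (0) for the interaction, 1014 (2) for HIF-2α against HIF-1α and 459 (3) for HIF-2α against KIN. The −log10 q gave 551 (2), 364 (1), 0 (0), 548 (2) and 107 (0). Regions called in 6 or more of the 12 libraries (8 or more of the 15 for KIN), with missing values filled in, gave 310 (1), 318 (2), 0 (0), 256 (1) and 102 (0). Against KIN, which had 3, median centring gave 10, normal scores 1 and array weights 5. Summit sites gave 0 for the DBD at the 9 genes, because the ANGPTL4 +0.8 kb site was not called in HIF-2α/1α. Leaving out each library gave 23 to 66 for the IDR, 42 to 92 for the DBD, 0 for the interaction, 31 to 95 for HIF-2α against HIF-1α and 0 to 4 against KIN, with 1 region at the 9 genes in each case for the DBD and 0 for the others. With the replicate block the numbers were 68, 94, 0, 118 and 4, and ANGPTL4 +0.8 kb had a DBD difference of −1.42 (limma adjusted p = 0.00404). The block changed no call at the 9 genes. All 12 libraries correlated best with a library of their own number, and the numbers of the peak lists in the labels run in 1 block per replicate number, but no label says what a number shares.

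Some differences that had not passed changed sign, as log2 values. By IDR, ADM +3.1 kb was 0.17 with median centring, and PGF −25.9 kb 0.505 by fragments and 0.0919 by −log10 q. By DBD and fragments, ADM +3.1 kb was −0.0672, ANGPTL4 −1.0 kb 0.0211 and VEGFA −44.9 kb 0.21. In the interaction by fragments, ANGPTL4 −1.0 kb was 0.0932 and ANGPTL4 +49.9 kb −0.26. For HIF-2α against HIF-1α, VEGFA −0.4 kb was 0.00532 with median centring, 0.46 by fragments and 0.21 by −log10 q. ADM +3.1 kb was −0.27 by fragments and −0.32 by −log10 q, PGF −25.9 kb 0.27 and VEGFA −44.9 kb 0.10 by fragments. Against KIN, ANGPTL4 +4.4 kb was −0.00903 with median centring and −0.0849 by fragments, ANGPTL4 −1.0 kb 0.14 and VEGFA −0.4 kb 0.0480 by fragments. The cause was not tested. Leaving out 1 library turned the sign within these ranges: by IDR, ADM +3.1 kb −0.285 to 0.106 and ANGPTL4 +35.3 kb −0.612 to 0.0198. By DBD, ADM +3.1 kb ranged from −0.0176 to 0.374, PGF −25.9 kb from −0.340 to 0.231 and ANGPTL4 +35.3 kb from −0.579 to 0.0286. In the interaction, ADM −0.1 kb ranged from −0.271 to 0.371 and VEGFA −44.9 kb from −0.831 to 0.0373. For HIF-2α against HIF-1α, PGF −25.9 kb ranged from −1.01 to 0.129, and against KIN from −0.0355 to 1.13, with ANGPTL4 +4.4 kb from −0.182 to 0.598. Of 1850 values of single regions 1766 kept direction and side of the threshold.

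The 44 consensus regions became 26 within 20 kb, 65 within 100 kb and 29 when nearest to the gene's own start, and those in all 15 tagged and 0 WT libraries became 4, 6 and 4. HRE counts of 12 became 19 within 100 bp, 4 within 25 bp and 0 for TACGTG. With 3 WT libraries, 1 WT call ends a call, and peaks with few fragments are missed in shallow libraries.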
